A study of Drosophila melanogaster with 18 samples.

Results

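The 8 genes studied here, Sxl, tra, tra2, dsx, ix, her, snf and fru, belong to the Drosophila sex determination pathway and were followed through a set of RNA interference knockdowns in S2R+ cells. They were chosen by FlyBase symbol and matched to the FlyBase gene IDs of the deposited count tables, and all 8 were found among 17559 IDs. Of the 8, 7 passed a filter on low counts that kept 8146 genes, and dsx did not pass it. S2R+ is an adherent cell line from Drosophila embryos with features of blood cells, and it is known to be male.

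The study made 18 libraries of polyadenylated RNA, 3 for each of 6 groups. All cells were S2R+ cells with no other allele or transgene named in the labels, and every group, the control included, was treated with double-stranded RNA (10 µg) 3 times over 6 days. Control cells received double-stranded RNA against LacZ, a bacterial gene. The knockdown groups were CG7358, Nito, Vir, Fl2d and, against Ime4 and dMettl14 together, Ime4_dMettl14. The proteins concerned all belong to the complex that writes N6-methyladenosine (m6A) on messenger RNA, and CG7358 is now annotated as Flacc. The targeted transcripts stood at 10.5% of the control mean for Mettl3 (the current symbol of Ime4), 14.5% for Mettl14, 16.8% for fl(2)d, 12.3% for vir, 24.9% for nito and 29.6% for Flacc, each in its own knockdown.

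In flies the number of X chromosomes decides whether Sxl, the master switch of female development, makes functional protein. In females Sxl protein directs the splicing of its own RNA and of tra RNA, and Tra protein with Tra2 then directs the splicing of dsx and fru. Males transcribe the same genes but splice them to forms that give no full-length Sxl or Tra protein and that give the male forms of Dsx and Fru. Several m6A complex genes, fl(2)d and vir among them, are known to be needed for the splicing of Sxl in females, and snf encodes a spliceosomal protein that acts beside Sxl. The counts used here sum all transcripts of a gene. They measure how much RNA of each gene was present and not which sex-specific form it took.

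Total counts per library were 15743484 to 18100792. Nothing in the labels says whether the 3 libraries per group stem from separate cultures, and p-values here therefore reflect only how far these libraries differ, which can be technical. All 5 knockdowns were compared with the same 3 Control libraries, and effects of a double-stranded RNA on other transcripts cannot be told apart from loss of its target. In bulk RNA, fewer cells that express a gene and less RNA per cell cannot be told apart either. Markers were checked against the labelled line: 7 of 8 blood cell genes passed the filter, as did 8146 of all 17559 IDs. In Control these blood cell genes ran from He at 1.2 CPM, eater at 6.95 and Hml at 11.5 up to the scavenger receptor gene crq at 427 CPM. The gene that did not pass, NimC1, had 1 to 20 reads per library. CPM are read counts scaled to the effective size of each library. Of the male dosage compensation genes, roX2 RNA stood at 64.1 ± 3.18 CPM and msl-2 at 56.8 ± 4.06 CPM in Control (SD, n = 3), while roX1 had 0 to 2 reads. The testis genes aly, can, Mst87F and dj had at most 2 reads in any library, and the yolk protein genes Yp1 and Yp2, products of the female fat body, had at most 8. Other genes of the ovary and fat body list had more, with 220 to 358 reads per library for bam, 27 to 105 for osk and 1 to 20 for Yp3.

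The 8 genes spanned a wide range of levels. Per kilobase of exon, Control cells held snf RNA at 61.6 ± 1.48 CPM per kb, above 82.5% of 7971 tested genes with a known length. Next on the same scale came tra2 at 29.2 ± 0.884, ix at 27.6 ± 2.84 and tra at 24.2 ± 2.00 CPM per kb, which lie between the 57.2 and 63.2 percentiles. The Control libraries gave 12.9 ± 0.297 CPM per kb for her, 6.35 ± 0.120 for fru and 0.999 ± 0.126 for Sxl, so Sxl stood above only 11.9% of tested genes. At 0.00671 CPM per kb, dsx was the lowest of the 8. Dividing by the longest transcript in place of all exons put fru, with its 15 annotated transcripts, at 13.9 CPM per kb and just above her, and left the other ranks as they were.

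**Figure D1:**
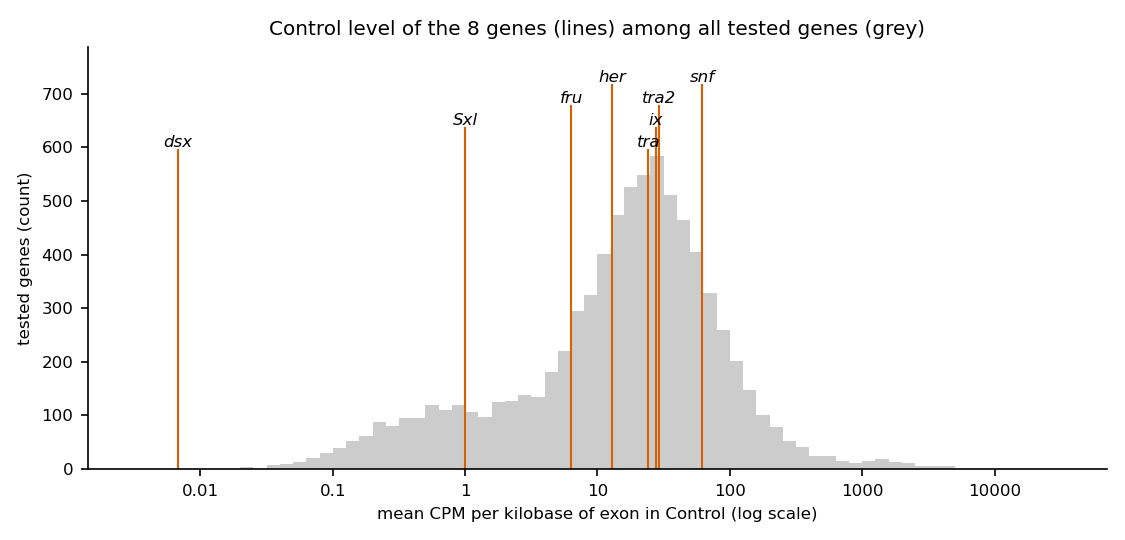
Mean Control level of each of the 8 genes (orange lines, CPM per kilobase of exon on a log axis) over a histogram of the tested genes (grey, number of genes per bin). snf lies right of the peak, tra, ix and tra2 at it, fru and her left of it, Sxl far left at 0.999 CPM per kb, and dsx at 0.00671 CPM per kb lies outside the tested genes.

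The number of reads decides how well each gene was measured. The genes tra, tra2, ix, her, snf and fru had at least 100 reads in every library and are called well measured. Their lowest counts ranged from 282 reads for ix to 1686 for fru. Their coefficient of variation within groups ran from 3.31% for snf to 8.43% for ix, beside 3.53% and 5.39% from counting alone. For fru it was 7.64%, above the 2.09% that counting gives, so reads did not limit fru. Sxl passed the filter with 78 to 171 reads per library. Its coefficient of variation within groups was 15.5%, against 8.67% from counting alone, so a modest change in Sxl is harder to see than the same change in the other 6. The gene dsx had 36 reads in all 18 libraries together and could not be tested in the same fit.

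Among the 6 groups, all 7 tested genes differed in edgeR's quasi-likelihood F test with Benjamini-Hochberg adjustment over all tested genes, as did 76.9% of all tested genes. Against Control, 12 of 35 values passed the threshold of an adjusted p under 0.05. The members called numbered 1 of 7 in Ime4_dMettl14, where 5.63% of all tested genes were called, 4 of 7 in Fl2d (32.0% of all), 0 of 7 in Vir (34.0%), 3 of 7 in Nito (60.7%) and 4 of 7 in CG7358 (37.6%). The median log2 fold change of the 7 was -0.05, -0.07, -0.01, -0.02 and 0.04 in that order, beside -0.004, -0.004, -0.004, 0.001 and 0.001 over all tested genes. For the count of 0 in Vir under edgeR, 3 of the 7 (Sxl, tra and snf) had an unadjusted p under 0.05, as did 3471 of all 8146 tested genes. DESeq2 also called 0 of the 7 in Vir, beside 2314 genes called in all.

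**Figure D2:**
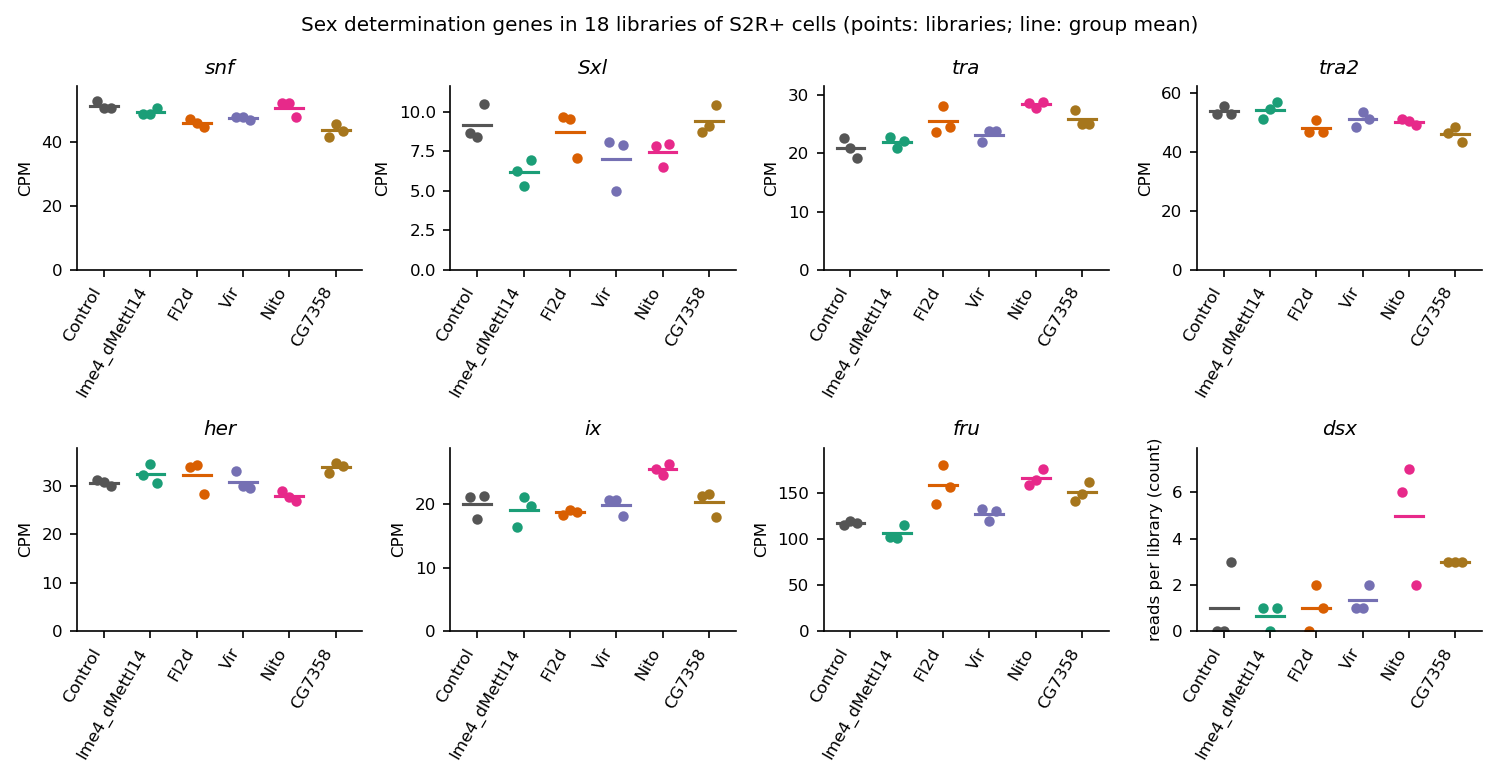
Level of each gene in each library, in CPM (for dsx, whole reads per library), by group; points are libraries and lines are group means, and every axis starts at 0. The Sxl mean is lowest in Ime4_dMettl14, the tra, ix and fru means are highest in Nito, and dsx stays at or under 7 reads in every library.

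The gene at the head of the pathway with Sxl is snf (FBgn0003449, BDGP6, chromosome X, 5309242 to 5310501, plus strand, 1 transcript of 835 bp), which encodes a protein of the U1 and U2 snRNPs and is needed for Sxl autoregulation. Its RNA was at 52.9, 50.8 and 50.7 CPM in the 3 Control libraries, at 47.2, 46.1 and 44.9 in Fl2d and at 41.8, 45.9 and 43.6 in CG7358. Every Fl2d and CG7358 library lay under every Control library. The level fell by 0.16 ± 0.05 on the log2 scale in Fl2d (SE, edgeR adjusted p = 0.00754) and by 0.23 ± 0.05 in CG7358 (adjusted p = 0.000149), which leaves 89.6% and 85.1% of the control mean. Vir libraries, at 47.8, 48.0 and 47.0 CPM, also lay under all Control libraries, but the log2 difference of -0.11 (95% interval -0.21 to -0.02) did not pass (adjusted p = 0.0554). In Ime4_dMettl14 and Nito snf stood at 96.3% and 98.8% of control, with log2 intervals of -0.15 to 0.04 and -0.11 to 0.07.

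Sxl itself (FBgn0264270, chromosome X, 7074550 to 7098053, minus strand, 25 transcripts) encodes the RNA-binding switch protein of female development. Control libraries held 8.65, 8.40 and 10.5 CPM of Sxl RNA and Ime4_dMettl14 libraries 6.26, 5.29 and 6.96 CPM, with no overlap. The level fell by 0.57 ± 0.16 on the log2 scale to 67.2% of the control mean (95% interval of the fitted ratio 54.0% to 84.5%, edgeR adjusted p = 0.0334). The fall was of the same direction without each of the 6 libraries in turn, at -0.66 to -0.46, but it kept its call only without Ime4_dMettl14 replicate 3 (adjusted p = 0.038). Without Control replicates 1, 2 and 3 the adjusted p was 0.0671, 0.0531 and 0.133, and without Ime4_dMettl14 replicates 1 and 2 it was 0.103 and 0.153. The 6 alternatives that kept all of these libraries kept the call (edgeR or DESeq2 adjusted p from 7.4e-05 to 0.0332).

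The other knockdowns left Sxl between 76.1% and 102% of control, and none of these values passed. Vir libraries held 8.07, 5.01 and 7.90 CPM, all under Control, at a log2 difference of -0.39 (95% interval -0.71 to -0.07, adjusted p = 0.0582). That value passed in a fit with no filter on low counts (adjusted p = 0.00363) and with the replicate number as a block (0.0335). It also passed without Vir replicate 1 or 3 (0.0331 and 0.0433), fits that keep replicate 2, the lowest of the 3. Without replicate 2 the log2 difference was -0.20 (adjusted p = 0.285). Nito libraries, at 7.84, 6.54 and 7.95 CPM, were also under all Control libraries, at -0.30 (-0.61 to 0.01, adjusted p = 0.0891). The Fl2d and CG7358 libraries overlapped Control, with log2 differences of -0.07 (-0.37 to 0.24) and 0.04 (-0.26 to 0.34). In a direct test, Sxl was lower in Ime4_dMettl14 than in the mean of Fl2d, Vir and CG7358 by a log2 difference of -0.43 ± 0.13 (adjusted p = 0.0156), a contrast in which 34.3% of all tested genes were called. This difference lost its call without Ime4_dMettl14 replicate 1 or 2 (adjusted p = 0.0555 and 0.115). For Sxl the Vir and Ime4_dMettl14 libraries overlapped, at group means of 6.99 and 6.17 CPM. Nito, at a mean of 7.44 CPM, was not part of this contrast.

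Next in the pathway is tra (FBgn0003741, chromosome 3L, 16590059 to 16591050, minus strand, 862 bp of exon), whose RNA is spliced under Sxl control in females and whose protein is a splicing activator. Control libraries held 22.6, 20.9 and 19.1 CPM and Nito libraries 28.6, 27.8 and 28.7 CPM. All Nito libraries lay above all Control libraries and above the libraries of CG7358, the group next in order, while Fl2d replicate 2 reached into the Nito range. The level rose to 136% of control in Nito, by 0.44 ± 0.07 on the log2 scale (edgeR adjusted p = 1.36e-06), and this value was called under every alternative run, at 0.38 to 0.49. It also rose in CG7358, at 27.5, 25.1 and 25.0 CPM, by 0.31 ± 0.07 (adjusted p = 0.000673), and in Fl2d, at 23.7, 28.1 and 24.6 CPM, by 0.28 ± 0.07 (adjusted p = 0.00201). Neither of these groups overlapped Control. Vir stood at 111% of control (log2 difference 0.15, 95% interval 0.01 to 0.30, adjusted p = 0.0977) and Ime4_dMettl14 at 105% (0.07, -0.07 to 0.21). The 74 bp of exon that tra shares with the antisense gene l(3)73Ah are 8.6% of its exon length. Whether reads were counted by strand is not given in the sources used here, so reads of the pair in that stretch cannot be told apart. The l(3)73Ah count also rose in Nito (0.26 ± 0.06, adjusted p = 0.00028), and it was not called in Fl2d (-0.09 ± 0.06) or CG7358 (0.06 ± 0.06), where tra rose.

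The partner of Tra is the product of tra2 (FBgn0003742, chromosome 2R, 14602004 to 14604337, minus strand, 7 transcripts), an RNA-binding protein present in both sexes. In CG7358 and Fl2d it moved the other way from tra. Control libraries held 53.0, 55.8 and 52.9 CPM of tra2 RNA, CG7358 libraries 46.5, 48.5 and 43.5 CPM, and Fl2d libraries 47.0, 51.1 and 46.9 CPM. Both knockdowns lay wholly under Control. The level fell by 0.22 ± 0.05 in CG7358 (edgeR adjusted p = 0.000701) and by 0.16 ± 0.05 in Fl2d (adjusted p = 0.0145), to 85.7% and 89.6% of the control mean. The Fl2d value lost its call without Control replicate 2 (adjusted p = 0.0644). Nito, at 93.5% of control with no overlap of libraries, did not pass (-0.10, 95% interval -0.20 to 0.00, adjusted p = 0.0855), and Vir and Ime4_dMettl14 had log2 differences of -0.07 (-0.18 to 0.03) and 0.02 (-0.08 to 0.12).

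The next genes act with or upon dsx. The zinc finger gene her (FBgn0001185, chromosome 2L, 16677185 to 16679691, plus strand) is needed early for Sxl expression and later for control of yolk protein genes. Its RNA had no call against Control in any knockdown in the fit of all 18 libraries with the filter and without a replicate block. Its levels ran from 26.8 to 34.6 CPM over the 18 libraries. Nito libraries, at 28.9, 27.7 and 26.8 CPM, lay under the Control libraries at 31.2, 30.7 and 29.8 CPM, and CG7358 libraries, at 32.6, 34.6 and 34.0 CPM, lay above them. The log2 differences were -0.14 (95% interval -0.27 to -0.01, adjusted p = 0.0651) and 0.14 (0.01 to 0.27, adjusted p = 0.0801). The Nito value passed with no filter (adjusted p = 0.0242), with only the groups compared (0.0298) and without Nito replicate 1 (0.0391). It also passed with the replicate number as a block (0.048). The CG7358 value passed with only the groups compared (0.0449). In the direct test her was lower in Nito than in the mean of the other 4 knockdowns by -0.21 ± 0.05 (adjusted p = 0.000574), a contrast in which 64.7% of all tested genes were called.

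The gene ix (FBgn0001276, chromosome 2R, 11359437 to 11360163, minus strand, a single exon of 727 bp) encodes a Mediator subunit that female Dsx protein needs as a partner. Control libraries held 21.1, 17.7 and 21.3 CPM of ix RNA, and Nito libraries 25.6, 24.6 and 26.3 CPM. The other 4 knockdowns, at 16.5 to 21.6 CPM, overlapped Control, and all Nito libraries lay above all others of the 18. The level rose in Nito by 0.35 ± 0.08 on the log2 scale, to 127% of control (edgeR adjusted p = 0.000463), at 0.26 to 0.39 under the alternatives with every call kept. In the direct test ix was higher in Nito than in the mean of the other 4 knockdowns by 0.39 ± 0.06 (adjusted p = 3.92e-06). No other annotated gene overlaps it.

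At the end of the pathway, fru (FBgn0004652, chromosome 3R, 18414273 to 18545586, minus strand, 15 transcripts) encodes zinc finger transcription factors whose male forms pattern courtship circuits, while other forms serve both sexes. It had the most reads of the 8 genes, 1686 to 3209 per library. Control libraries held 114.8, 119.3 and 116.9 CPM of fru RNA, Nito libraries 158.3, 164 and 176 CPM, Fl2d libraries 138.2, 180.6 and 156.2 CPM and CG7358 libraries 141.4, 149.3 and 161.9 CPM. All 9 libraries of these knockdowns lay above all Control libraries. The level rose by 0.51 ± 0.09 in Nito (edgeR adjusted p = 0.000242), by 0.44 ± 0.09 in Fl2d (adjusted p = 0.00216) and by 0.37 ± 0.09 in CG7358 (adjusted p = 0.00554), to 142%, 135% and 129% of control. These calls held under every alternative run. Without Fl2d replicate 2, the highest of the 18 libraries for fru, the Fl2d value was 0.33 (adjusted p = 0.00322). Vir libraries, at 133, 119.3 and 130 CPM, touched the Control range (log2 difference 0.12, 95% interval -0.07 to 0.32), and Ime4_dMettl14 libraries were at 102.1, 101.3 and 115.7 CPM (-0.14, -0.33 to 0.06). The direct test gave a lower fru level in Ime4_dMettl14 than in the mean of Fl2d, Vir and CG7358, by -0.45 ± 0.07 (adjusted p = 0.000466).

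The remaining member, dsx (FBgn0000504, chromosome 3R, 7924323 to 7967408, minus strand), encodes the transcription factors that set most sexual traits of the body. It had 0, 0 and 3 reads in the Control libraries and 0 to 2 in every library of Ime4_dMettl14, Fl2d and Vir. The Nito libraries had 6, 7 and 2 reads and the CG7358 libraries 3 each, so Nito overlapped Control. Summed over a group, this is 0.0597 CPM on total counts in Control (exact Poisson 95% interval 0.0123 to 0.175), 0.182 in CG7358 (0.083 to 0.345) and 0.29 in Nito (0.162 to 0.478), with intervals that cover counting error only. The Control sum of 3 reads is at the limit that a count of 0 would allow for the group. In a fit with no filter on low counts, over 14063 genes, Nito against Control gave an adjusted p of 0.0364 for dsx, and the call was lost without Control replicate 1 or 2 (0.185 for each) or Nito replicate 1 or 2 (0.114 and 0.16). The Nito libraries also had reads on more genes, 11156 to 11312 with at least 1 read against 10366 to 10847 in the other 15 libraries, and the part of this in the dsx counts was not tested. The gene shares 169 bp of exon with the antisense gene lds, which had 2724 to 3543 reads per library, and reads of the pair in that stretch cannot be told apart.

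**Figure D3:**
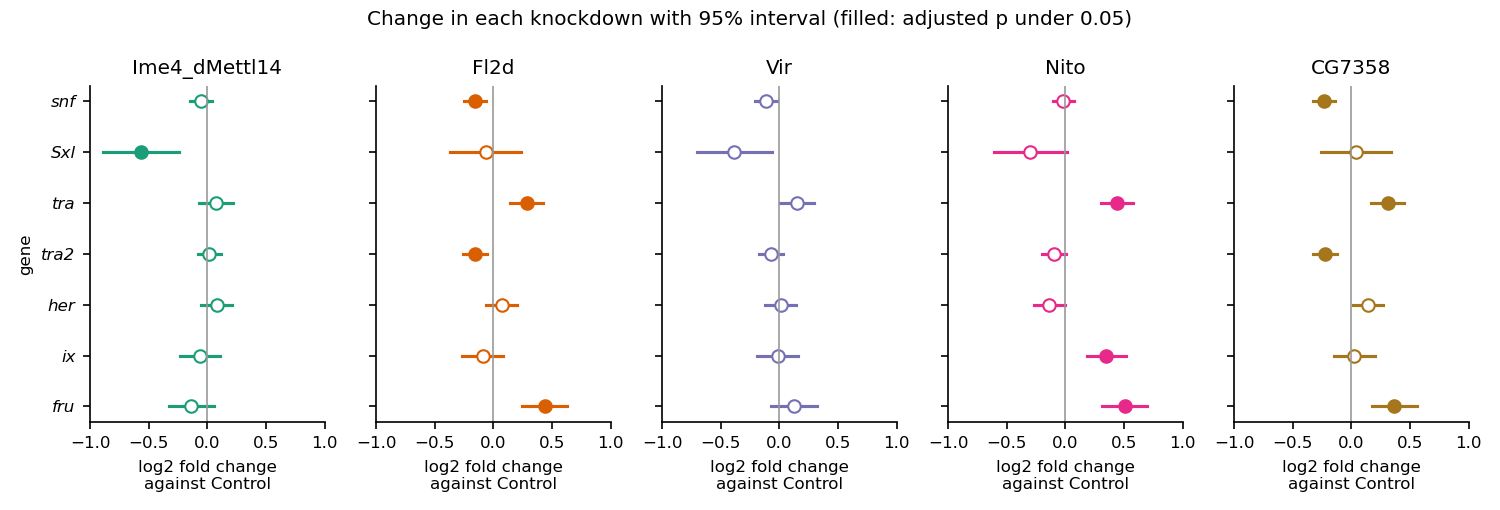
Log2 fold change of the 7 tested genes in each knockdown against Control (points) with 95% intervals (lines); filled points passed an adjusted p of 0.05. The tra and fru points lie right of 0 and are filled in Fl2d, Nito and CG7358, snf and tra2 lie left of 0 and are filled in Fl2d and CG7358, ix is filled only in Nito, and the wide Sxl interval is filled only in Ime4_dMettl14.

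Set side by side, Fl2d and CG7358 gave calls for the same 4 genes in the same directions, with tra and fru higher and snf and tra2 lower, and both comparisons used the same Control libraries. Of all tested genes, 32.0% were called in Fl2d and 37.6% in CG7358. The share called in both was not counted, so the agreement is a description of these 4 genes. Nito shared the higher tra and fru and added a higher ix, while its snf level was at 98.8% of control. Tested directly against the mean of the other 4 knockdowns, where 64.7% of all tested genes were called, Nito differed in 5 of the 7 genes. Beside ix and her, it was higher for tra (0.24 ± 0.05, adjusted p = 0.000165), fru (0.31 ± 0.07, adjusted p = 0.0013) and snf (0.12 ± 0.04, adjusted p = 0.00354), and the snf value lost its call without Nito replicate 1 (adjusted p = 0.0538). For fru, however, the Nito and Fl2d libraries overlapped, at group means of 166.1 and 158.3 CPM. For snf the Nito and Ime4_dMettl14 libraries overlapped, at group means of 50.8 and 49.5 CPM. Ime4_dMettl14, tested against the mean of Fl2d, Vir and CG7358, also differed in 5 of 7, where 34.3% of all tested genes were called. It was lower for Sxl and fru as given above and for tra (-0.18 ± 0.06, adjusted p = 0.0149), and higher for tra2 (0.17 ± 0.04, adjusted p = 0.00155) and snf (0.11 ± 0.04, adjusted p = 0.0174). The tra value lost its call without Ime4_dMettl14 replicate 2 or 3 (adjusted p = 0.126 and 0.0569), and the snf value lost it without replicate 3 (0.0807) and with DESeq2 (0.0563).

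Across the 18 libraries, log2 CPM of tra and fru varied together with a Pearson r of 0.82 and those of tra2 and snf with 0.73, whereas tra2 and fru had an r of -0.61. The other pairs lay between -0.47 and 0.47. These are descriptions over 18 libraries that share group, treatment and depth, and the group differences above enter them. The 3 tested genes most like fru on this measure were pum (r = 0.97), msi (0.97) and Rbfox1 (0.96), all of which encode RNA-binding proteins. Since they were chosen for this likeness, their group values are a description: the log2 differences from Control in Nito were 0.27, 0.58 and 0.84, and those in Fl2d 0.26, 0.55 and 0.83. Among the genes most like snf were FBgn0016792 (0.93), an ID without a symbol in the annotation used here, and row (0.92). For Sxl the nearest genes were CrebA (0.85), Cam (0.84) and eIF4EHP (0.83), and for tra they were CG45049 (0.89), His3.3B (0.89) and the noncoding RNA Hsromega (0.88). Nearest to tra2 were AP-2mu (0.84), Hcs (0.82) and CG10353 (0.82), to ix the noncoding CR32865 (0.88), Gos28 (0.87) and CG8369 (0.86, at 0.196 CPM or less in every group mean but Nito, through which it passed the filter), and to her Atg10 (0.88), CG16965 (0.88) and CG5021 (0.87).

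**Figure D4:**
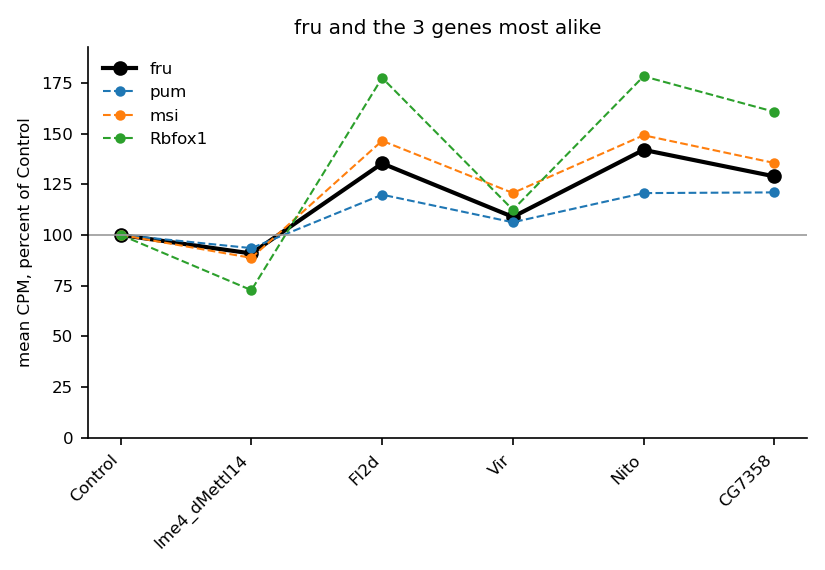
Group mean CPM as percent of the Control mean for fru (black) with the 3 genes of the most similar pattern over 18 libraries, pum, msi and Rbfox1 (coloured); lines only join the points of a gene. All 4 genes stand above 100% in Fl2d, Nito and CG7358 and below it in Ime4_dMettl14, a likeness for which the 3 were chosen.

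Other genes of the pathway were read from 6 lists. Of the X chromosome signal genes, which turn Sxl on in early embryos, sisA, sc and run had at most 1 read per library and their counterpart dpn at most 4. A further pair of the 8 listed genes was not matched to an ID, which left 2 tested. Both encode repressors of the signal or its partners. The corepressor gene gro rose in Nito (0.32 ± 0.04, adjusted p = 5.33e-09), Fl2d (0.23 ± 0.04), Vir (0.16 ± 0.04) and CG7358 (0.12 ± 0.04). The helix-loop-helix inhibitor gene emc fell by 0.44 ± 0.06 in Nito (adjusted p = 1.27e-06) and by 0.18 ± 0.06 in Vir (adjusted p = 0.0193).

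Splicing cofactors of Sxl, a list of 15 genes that includes the knocked-down ones, were all tested. In Nito 10 rose and 1 fell, with a median log2 difference of 0.22 beside 0.001 over all tested genes, of which 60.7% were called there, and the 1 that fell was nito itself. Elsewhere, targets included, there were 1 higher and 2 lower in Ime4_dMettl14 (5.63% of all tested genes called), 1 higher and 5 lower in Fl2d (32.0%), 2 and 2 in Vir (34.0%), and 1 and 4 in CG7358 (37.6%). The RNA of fl(2)d, outside its own knockdown, rose in all 4 others, by 0.28 ± 0.03 in Ime4_dMettl14 to 0.52 ± 0.03 in Nito. Of 7 tested genes for SR proteins and kinases that act with Tra and Tra2, 3 rose in Fl2d, 3 rose in Vir, and 2 rose and 2 fell in each of Nito and CG7358, beside shares of 32.0%, 34.0%, 60.7% and 37.6% called among all tested genes. B52, an SR protein gene, fell by 0.51 ± 0.04 in CG7358 (adjusted p = 7.47e-13) and rose in Nito (0.23 ± 0.04), Vir (0.19 ± 0.04) and Fl2d (0.16 ± 0.04). The SR protein gene SC35 fell by 0.23 ± 0.04 in CG7358 and by 0.11 ± 0.04 in Nito. The kinase gene Doa rose by 0.16 ± 0.03 in Fl2d, 0.12 ± 0.03 in Vir and 0.13 ± 0.03 in CG7358, and it fell by 0.08 ± 0.03 in Nito. Psi, also on this list, rose by 0.21 ± 0.05 in Fl2d and by 0.15 ± 0.05 in CG7358.

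Downstream of Sxl, 5 of 7 listed targets and translational partners were tested. The RNA of msl-2, whose translation Sxl blocks in females, was not called against Control in any knockdown, at log2 differences of -0.11 to 0.03 with SEs of 0.06. The Notch gene N fell by 0.40 ± 0.04 in Nito (adjusted p = 6.08e-11), by 0.18 ± 0.04 in Fl2d and by 0.14 ± 0.04 in Vir. The RNA-binding protein gene how rose in Nito (0.58 ± 0.09), CG7358 (0.46 ± 0.09) and Fl2d (0.25 ± 0.09, adjusted p = 0.0477). Unr, the partner of Sxl in that translational block, was called higher in Fl2d (2.40 ± 0.69, adjusted p = 0.0189), but over all 18 libraries it ranged from 9.07 to 221 CPM and its Fl2d mean of 96.7 CPM had an SD of 108.

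Of 16 genes downstream of or acting with dsx and fru, 6 were tested. The tested gene bab2, which shapes abdominal pigmentation, rose in Nito (1.47 ± 0.11, adjusted p = 7.07e-13) and by 0.57 to 0.62 in CG7358, Vir and Fl2d, and its neighbour and paralog bab1 rose in Fl2d (0.66 ± 0.17, adjusted p = 0.00385). In Nito the bab1 difference from Control was -0.40 ± 0.20 (adjusted p = 0.0795), and Nito was lower than the mean of the other 4 knockdowns by -0.76 ± 0.15 (adjusted p = 7.57e-05). The FGF ligand gene bnl fell by 0.50 ± 0.12 in Nito. The listed gene dati rose in Nito (0.36 ± 0.08, edgeR adjusted p = 0.000167) and was not called against Control in the other knockdowns. Among paralogs of Sxl and dsx, 3 of 7 were tested. The nearest relative of Sxl, ssx, was at 78.8 CPM per kb of exon in Control against 0.999 for Sxl on the same scale. It rose in Nito by 0.34 ± 0.03 (adjusted p = 1.15e-11), and the ELAV family gene Rbp9 rose there by 1.14 ± 0.16 (adjusted p = 4.2e-07). The marker lists were read in the same way, and 60.7% of all tested genes were called in Nito. The neuronal list, which shares elav with the paralogs, had 2 of 4 genes tested, elav and brp. The 1 called higher in Nito was brp, with 9 to 48 reads per library, at 0.665 CPM in Control and 2.42 in Nito. The elav difference in Nito was not called (0.34 ± 0.19, adjusted p = 0.13), with elav at 13.6 to 35.3 CPM over all libraries. Reads of nSyb and Syt1 were 0 to 13 and 0 to 8. Of the ovary and fat body list, 3 of 7 genes were tested. Of these, osk and bam stood at 3.66 and 14.9 CPM in Control and at 2.06 and 20.3 CPM in Nito. The third, Yp3, had 1 to 20 reads, close to the limit of the filter, and its highest mean in Nito, at 0.831 CPM, so no count is read from the list. Of 7 tested blood cell genes, 1 rose and 4 fell in Nito and 4 rose and 2 fell in CG7358, where 60.7% and 37.6% of all tested genes were called. In Vir 2 rose and 3 fell (34.0% of all called), in Fl2d 2 rose and 1 fell (32.0%), and in Ime4_dMettl14 1 fell (5.63%). Of the 2 tested male dosage compensation genes, roX2 was called lower in Nito and CG7358, at 40.5 and 56.0 CPM beside 64.1 in Control. The part of these markers in the levels of the members was not tested.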

How the data were processed

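Per the labels' protocols, polyadenylated RNA of S2R+ cells was sequenced from strand-specific libraries. The authors deposited raw whole-number counts for each FlyBase gene, 1 table per library, with total counts of 15743484 to 18100792. The build was BDGP6, and featureCounts 1.5.1 and STAR 2.5.1b were used, per the submitters' processing notes. Sources used here do not give the annotation release or how strand, overlapping genes and multiply mapped reads were set. Positions, exon lengths and overlaps come from the Ensembl annotation of that assembly, which named 17253 of 17559 IDs.

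Groups came from the treatment label. Counts were fitted in R 4.3.3 with edgeR 4.0.16: filterByExpr, TMM scaling and a robust quasi-likelihood model of all 18 libraries with 1 coefficient per group. Adjustment was by the Benjamini-Hochberg method over 8146 genes per contrast. The SE is the size of the log2 fold change divided by the square root of F, and intervals are 95%. Log2 CPM for correlations used a prior count of 2. The script was tested on simulated data. Intervals on counts cover counting error only.

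The members and lists were chosen with earlier results of these data known. Named are all 8 members, up to 4 genes per pathway list with the smallest p in the F test, and the 3 genes most like each member in pattern, of which 1 is not reported here; markers and overlapping genes are given beside them. List genes with few reads were named after their values were seen. Listed genes os, da, SF2, nos, wg, lola and vas were not matched to an ID. Alternatives were DESeq2 size factors, the DESeq2 1.42.0 test, no filter, a filter at 5 CPM in 3 libraries, only the groups compared, a replicate block, and each library left out.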

Additional observations from a re-analysis of the deposited data

How the results depend on the processing

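Over 728 values of the members under the alternatives, 675 kept their side of the threshold and, where they had one, their direction. These include the tests among the 6 groups, which have no direction and all kept their call. Of the other values, 13 lost a call, 14 gained one and 26 changed sign, all of the latter small differences without a call before or after. With 1 library left out, these log2 differences ran, against Control, from -0.146 to 0.033 (ix) and -0.016 to 0.056 (tra2) in Ime4_dMettl14, -0.158 to 0.061 (Sxl) in Fl2d, -0.098 to 0.046 (ix) and -0.037 to 0.039 (her) in Vir, -0.047 to 0.023 (snf, 0 to 3 decimals with the filter at 5 CPM) in Nito, and -0.044 to 0.139 (Sxl) and -0.065 to 0.098 (ix) in CG7358. In the direct test of Nito they ran from -0.010 to 0.030 for tra2, which was at -0.006 with no filter, and from -0.108 to 0.030 for Sxl, and in that of Ime4_dMettl14 from -0.107 to 0.065 for ix and -0.034 to 0.058 for her. All 48 group levels moved by less than 1 SD under DESeq2 size factors. The number of genes called in Ime4_dMettl14 against Control was 459 and ranged from 233 to 364 when 1 library was left out, namely 267 and 250 without Control replicates 1 and 2 and 233 and 238 without Ime4_dMettl14 replicates 1 and 2; the cause was not tested. Replicate numbers showed at most a weak pairing of the libraries, judged by correlating deviations from the group means between libraries of different groups. Across 45 pairs with the same number r was -0.09 to 0.17 (median 0.01), and 5 passed 0.1. Across 90 pairs with different numbers r was -0.13 to 0.12 (median 0), and 2 passed 0.1. For 9 of the 18 libraries the mean r was highest with libraries of their own number. With the replicate number as a block the number of genes called in Ime4_dMettl14 against Control was 458. Among the members the replicate block added calls for Sxl in Vir (-0.39, adjusted p = 0.0335) and her in Nito (-0.14, adjusted p = 0.048). With no filter on low counts, tra2 and her in Nito were also called (-0.12 and -0.16), as was Sxl (-0.32). With only the groups compared, Sxl and her in Nito (-0.30 and -0.14), her in CG7358 (0.14) and fru in Vir (0.13) were called. Without Control replicate 1, tra in Vir was called (0.21), and without Nito replicate 1, her in Nito (-0.18). The dsx fits with no filter and 1 library left out were chosen after seeing the data, and no fold change is given from them because Control holds 3 reads in all. Depth limits dsx, which had 36 reads over 18 libraries.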
